A study of Aspergillus niger with 24 samples.

Results

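The comparison described here is the step to labelled day 3 from labelled day 2 in the wild type (WT) of Aspergillus niger, strain CICC2629, measured by RNA sequencing of its hyphae. Its members are 6 of the series' 24 libraries, 3 of WT day 3 and 3 of WT day 2, chosen by the strain and day in the library names. The same study sampled WT on days 1 and 4, and on days 1 to 4 a strain made from it to express TLL, with 3 libraries in each of the 8 groups. TLL is a lipase, an enzyme that cleaves fats and oils, and nothing in the labels names the promoter or the number of clones behind the TLL libraries. Both strains grew on potato dextrose agar at 28 °C, a solid medium of potato extract and glucose. The series gives its sampling times as 0, 24, 48 and 72 hours and does not say which hour is which day, so the day labels are used. Whether replicates were grown as separate cultures is not stated, and p-values here reflect just the spread among these samples, which may be technical.

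Aspergillus niger is a filamentous fungus that feeds by secreting hydrolases, such as the starch-degrading glucoamylase, and taking up the sugars they release. A colony on a solid surface holds growing edges, older hyphae and aerial structures that make dark asexual spores, so a sample of hyphae is a mixture of ages. In Aspergillus species the genes of one secondary metabolite pathway often lie side by side in the genome and are switched on together. The deposited table identifies genes only by IDs, and nothing used here pairs these IDs with names, products or positions, so no role is given to any gene below, no gene list was counted and the labelled cell type was not checked with marker genes. In bulk RNA, fewer cells that express a gene and less of its RNA per cell cannot be told apart.

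The table held 11846 genes in TPM, a transcript abundance corrected for gene length and scaled to the same total in each library. A rise of an abundant gene lowers all others on this scale, and the depth of the libraries is unknown. Between 8792 and 8935 genes reached 1 TPM in the WT day 3 libraries, against 8659 to 8824 in the WT day 2 libraries. Replicates correlated at 0.986 to 0.988 within WT day 3 and at 0.983 to 0.991 within WT day 2 across the 9558 genes tested, on log2(TPM + 1). The WT day 3 libraries stood apart from WT day 2 by more than the WT day 4 libraries did. Correlations with WT day 2 were 0.867 to 0.889 for WT day 3 and 0.949 to 0.963 for WT day 4. WT day 3 correlated at 0.907 to 0.913 with TLL day 4 and at 0.894 to 0.905 with TLL day 3. In the deposited table the columns of WT day 3 and TLL day 4 fill places 1 to 6, ahead of the 18 other libraries, which follow in order of strain and day. What that order stands for is not given in the sources used here, and its part in the results was not tested. In these files a change between days cannot be told apart from a shared handling of these 6 libraries or from exchanged day labels, so WT day 3 and TLL day 4 below mean the libraries so labelled. The WT step rests on the WT day 3 libraries, so it has no value without them.

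A large part of the measured transcriptome differed between WT day 3 and WT day 2. Of 9558 genes tested, 5125 passed at an adjusted p under 0.05 (limma, Benjamini-Hochberg adjustment over all genes tested), which is 53.6% of them. At day 3, 1926 genes were higher (20.2%) and 3199 were lower (33.5%). The changes were often modest, with 2703 of the called genes, 52.7%, under 2-fold on the log2(TPM + 1) scale. A change of 2-fold or more was called in 2422 genes (25.3%), 1048 of them higher (11.0%) and 1374 lower (14.4%). For 8-fold or more there were 104 higher (1.09%) and 109 lower (1.14%).

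The libraries of both days did not overlap in 1896 of the 1926 genes called higher and in 3134 of the 3199 called lower. Over all genes tested, the 3 WT day 3 libraries lay above the 3 WT day 2 libraries in 2702 genes (28.3%) and below them in 4031 (42.2%). The excess of lower genes moved with the scaling of the libraries. In TPM the log2 change had a median of -0.17 over all genes tested, and 37.6% of the called genes were higher. With median-of-ratios scaling the median was -0.01, and 2538 genes were called higher and 2514 lower, so that 50.2% were higher. With quantile normalization 2468 were higher and 2814 lower. The count at 8-fold depends on the pseudocount added before the log, with 205 higher and 186 lower genes at 0.1 TPM and 50 and 63 at 5 TPM.

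**Figure D1:**
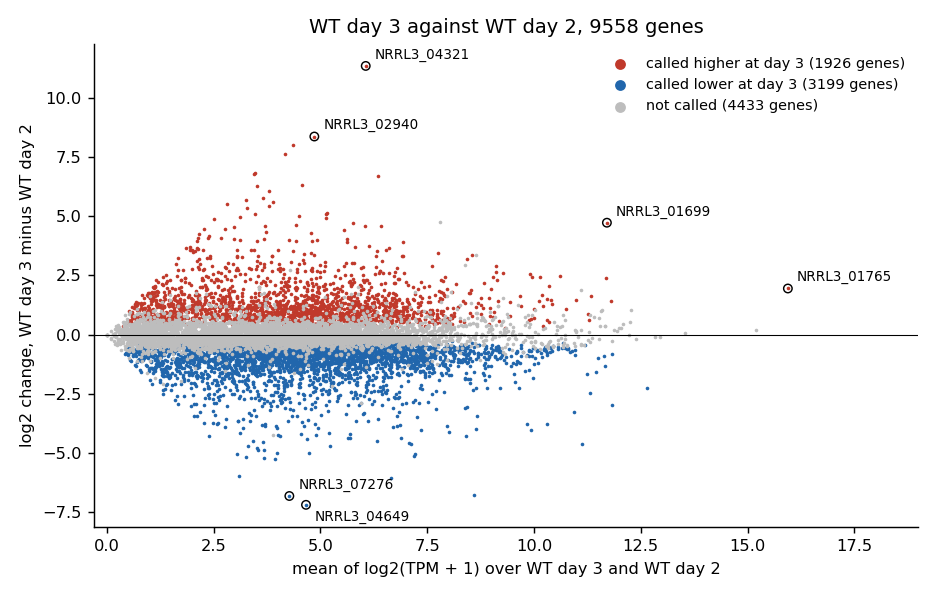
The horizontal axis is the mean of log2(TPM + 1) over WT day 3 and WT day 2 and the vertical axis the log2 change between them, with a point for each of 9558 genes. The 1926 genes called higher are red, the 3199 called lower are blue and the 4433 not called are grey, and 6 genes described in the text are circled and labelled.

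The most abundant transcripts took a larger share of the library at day 3. The 10 most abundant genes held 23.4%, 24.1% and 22.4% of all TPM in WT day 3 replicates 1, 2 and 3, against 13.8%, 14.2% and 14.7% in WT day 2 replicates 1, 2 and 3. The groups do not overlap, with means of 23.3% ± 0.884 at day 3 and 14.3% ± 0.452 at day 2 (SD, n = 3 each). With 3 libraries against 3, a two-sided exact permutation test cannot go below p = 0.1, which is the value it gave (0.125 after Benjamini-Hochberg adjustment over 5 such measures). Of the 10 genes with the highest mean at day 3, 5 were also among the 10 of day 2, and 66 of the 100 most abundant were shared.

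The mean share of the 10 most abundant genes rose by 9.03% of all TPM, which is no more than the rise of a single gene, NRRL3_01765. It was singled out, as were NRRL3_01699, NRRL3_04517 and NRRL3_04926 below, after its values were seen. NRRL3_01765 stood at 128907, 126073 and 114969 TPM in WT day 3 replicates 1, 2 and 3, against 35652, 34510 and 26447 TPM in WT day 2 replicates 1, 2 and 3. All day 3 libraries lay above all day 2 libraries, and the mean rose by 9.11% of all TPM (log2 change 1.95, SE 0.50, limma adjusted p = 0.00288). Quantile normalization ended the call of this gene, with a log2 change of 0.36 (limma adjusted p = 0.644). That method gives genes of equal rank the same value in every library. NRRL3_01765 was the most abundant gene in all WT day 3 libraries and in WT day 2 replicates 1 and 2. Little of its rise could therefore remain under that method. The high level was also present in WT day 4, at 122042 ± 13947 TPM, and at a similar 128657 ± 1972 TPM at TLL day 4 (SD, n = 3 each). When this gene was left out and each library scaled again to the same total, an alternative chosen after seeing the data, the median log2 change of all genes was -0.05 and 46.0% of the called genes were higher.

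The next largest gain in TPM belonged to NRRL3_01699. It held 17427, 17540 and 16621 TPM in WT day 3 replicates 1, 2 and 3, against 704, 665 and 578 TPM in WT day 2 replicates 1, 2 and 3 (log2 change 4.73, SE 0.37, limma adjusted p = 3.62e-09). It ranked 3rd in abundance at day 3 and 272nd at day 2. At WT day 4 it held 512 ± 52.3 TPM, so the day 3 level was not present there, and at TLL day 4 it held 9475 ± 2152 TPM (SD, n = 3 each).

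Losses of TPM in single genes were smaller than the gain of NRRL3_01765. NRRL3_04517 had the largest, with 2859, 3368 and 2578 TPM in WT day 3 replicates 1, 2 and 3, against 13798, 14409 and 14331 TPM in WT day 2 replicates 1, 2 and 3 (log2 change -2.28, SE 0.15, limma adjusted p = 3.31e-10). NRRL3_04926 had 432, 585 and 340 TPM in WT day 3 and 12620, 10834 and 9598 TPM in WT day 2, in the same order of replicates (log2 change -4.63, SE 0.60, limma adjusted p = 2.84e-06). The day 3 libraries lay below all day 2 libraries for both genes. A mean at least 1000 TPM higher at day 3 was found in 35 genes, of which 24 were called. A mean at least 1000 TPM lower was found in 26, all called, where 53.6% of all genes tested were called. The genes called higher held 35.2% ± 0.509 of all TPM at WT day 3 and 11.5% ± 1.42 at WT day 2 (SD, n = 3 each). The genes called lower held 19.9% ± 0.321 at WT day 3 and 46.1% ± 0.920 at WT day 2 (SD, n = 3 each). These sums describe genes chosen for their difference, so they carry no test.

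Direction differed between classes of abundance, set by the mean TPM over all 24 libraries. A gene high only at WT day 3 has a lower mean, and so a lower class, than a gene low only there. The link of class and direction can thus be partly built in, and how far was not tested. Of the 1369 tested genes with a mean of 100 to 1000 TPM over all libraries, 217 were higher and 638 lower at WT day 3, with a median log2 change of -0.40. Median-of-ratios scaling gave 305 and 501 in this class, and quantile normalization 315 and 522, so it leaned to the lower side under both. Below 10 TPM, 676 of 3116 genes were higher and 685 lower, while median-of-ratios scaling gave 849 and 556 and quantile normalization 791 and 686. Of the 4904 genes from 10 to 100 TPM, 1013 were higher and 1810 lower, which became 1354 and 1425 with median-of-ratios scaling. Of the 169 genes over 1000 TPM, 20 were higher and 66 lower, against 30 and 32 with median-of-ratios scaling and 28 and 56 with quantile normalization.

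The largest rises belonged to genes that were nearly absent at WT day 2. NRRL3_04321, the first gene by the fixed rule, stood at 3285.66, 3550.38 and 3125.84 TPM in WT day 3 replicates 1, 2 and 3, against 0, 1.03 and 0 TPM in WT day 2 replicates 1, 2 and 3. The log2 change was 11.36 (SE 0.39, limma adjusted p = 1.43e-14), and 13.85 or 9.29 with a pseudocount of 0.1 or 5 TPM. No other group of the series averaged above 5.66 TPM, the mean of TLL day 4. WT day 4 averaged 0.837 TPM.

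NRRL3_02940 was the second. It had 518, 591 and 441 TPM in WT day 3 replicates 1, 2 and 3, and 0.46, 0.09 and 1.33 TPM in WT day 2 replicates 1, 2 and 3 (log2 change 8.38, SE 0.28, limma adjusted p = 1.08e-14). The days are apart by more than the spread of either group, and the means of all 6 other groups were at most 0.883 TPM. Its log2 change was 9.91 or 6.53 with a pseudocount of 0.1 or 5 TPM.

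The largest falls were nearly complete as well. NRRL3_04649 had 0.75, 1.60 and 0.96 TPM in WT day 3 replicates 1, 2 and 3, against 288, 311 and 314 TPM in WT day 2 replicates 1, 2 and 3 (log2 change -7.20, SE 0.21, limma adjusted p = 1.81e-15). Its WT day 4 mean of 77.2 ± 13.8 TPM (SD, n = 3) lay between both days. NRRL3_07276 had 1.00, 0 and 1.66 TPM in WT day 3 and 198, 191 and 203 TPM in WT day 2, in the same order of replicates (log2 change -6.83, SE 0.29, limma adjusted p = 2.16e-13). WT day 4 held more of it than WT day 2 did, at 516 ± 30.9 TPM (SD, n = 3). With pseudocounts of 0.1 and 5 TPM the log2 change was -8.04 and -5.67 for NRRL3_04649 and -8.41 and -5.11 for NRRL3_07276.

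**Figure D2:**
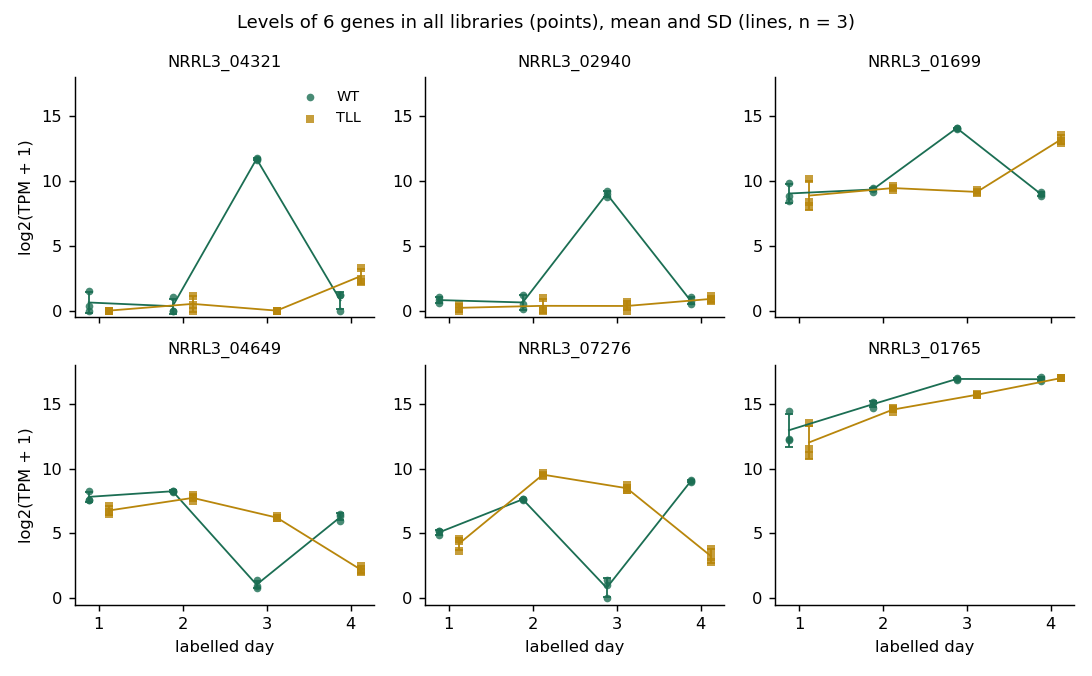
Each panel gives the level of a gene on the log2(TPM + 1) scale against the labelled day, with a point for each of the 24 libraries, and lines through group means with SD bars (n = 3), WT in green and TLL in ochre. NRRL3_04321 and NRRL3_02940 average at most 5.66 TPM in all groups except WT day 3, NRRL3_04649 and NRRL3_07276 dip at WT day 3 and TLL day 4, and NRRL3_01765 is high at WT days 3 and 4.

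Of the 8 IDs beside the 4 named genes, 6 were tested and 5 were called in the direction of the named gene, where 20.2% of all tested genes were called higher and 33.5% lower. The IDs run without a gap over the 11846 genes, but the sources used here do not tie them to genome positions. NRRL3_04320 had 122, 123 and 107 TPM in WT day 3 and 0, 0.12 and 0 TPM in WT day 2, and NRRL3_04322 had 80.8, 90.2 and 80.0 TPM in WT day 3 and 6.40, 3.47 and 3.69 TPM in WT day 2, in the order of replicates. Both sit beside NRRL3_04321, and their log2 changes were 6.83 (SE 0.19, limma adjusted p = 1.81e-15) and 3.98 (SE 0.19, limma adjusted p = 1.7e-12). NRRL3_02941 rose beside NRRL3_02940, with means of 33.5 TPM in WT day 3 and 1.19 TPM in WT day 2 (limma adjusted p = 3.79e-11), while NRRL3_02939 was listed at 0 in all libraries. NRRL3_04650 fell beside NRRL3_04649, with means of 1.48 TPM in WT day 3 and 93.7 TPM in WT day 2 (limma adjusted p = 6.37e-14). NRRL3_04648 averaged below 1 TPM in all groups. Of the neighbours of NRRL3_07276, NRRL3_07277 fell (log2 change -2.38, SE 0.22, limma adjusted p = 2.84e-08) and NRRL3_07275 did not pass (log2 change 0.51, SE 0.21, limma adjusted p = 0.0517).

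Runs of adjacent IDs that moved the same way were found among the strongest changes. Of the 302 genes called at least 4-fold higher (3.16% of those tested), 79 had an adjacent ID in the same set, which is 26.2%. Of the 335 genes called at least 4-fold lower (3.50%), 82 had an adjacent ID in the same set, which is 24.5%. There were 10 runs of 3 or more IDs that were higher and 9 that were lower. These sets were chosen on the same libraries, so the shares are a description.

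The longest run each way held 5 genes, and both were singled out after their values were seen. In the run NRRL3_06288 to NRRL3_06292, mean levels were 3.93 to 30.1 TPM in WT day 3 and at most 0.230 TPM in WT day 2, with log2 changes of 2.29 to 4.88. All 5 genes averaged at most 1.46 TPM in every other group. NRRL3_06289, the gene of the run with the largest change, had 27.2, 30.8 and 32.1 TPM in WT day 3 and 0.09, 0 and 0.08 TPM in WT day 2, in the order of replicates. With a pseudocount of 5 TPM the log2 changes of the run were 0.83 to 2.79, with NRRL3_06288 (1.80) and NRRL3_06291 (0.83) under 4-fold, so the run of 5 depends on the pseudocount, and with 0.1 TPM they were 5.23 to 7.64. The next 3 IDs were also called higher, of which the first changed less than 4-fold.

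In the run NRRL3_11763 to NRRL3_11767, mean levels were 0.220 to 1.76 TPM in WT day 3 and 11.7 to 89.7 TPM in WT day 2, with log2 changes of -4.99 to -2.55. NRRL3_11764 had 2.02, 1.68 and 1.58 TPM in WT day 3 and 107, 103 and 59.4 TPM in WT day 2, in the order of replicates. WT day 2 replicate 3 was the lowest of its group for all 5 genes and still lay above all WT day 3 libraries. With a pseudocount of 5 TPM the log2 changes were -3.76 to -1.43, with NRRL3_11765 (-1.43) and NRRL3_11767 (-1.74) under 4-fold, and with 0.1 TPM they were -5.55 to -3.26. At WT day 4 the 5 genes averaged 0.983 to 18.3 TPM.

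**Figure D3:**
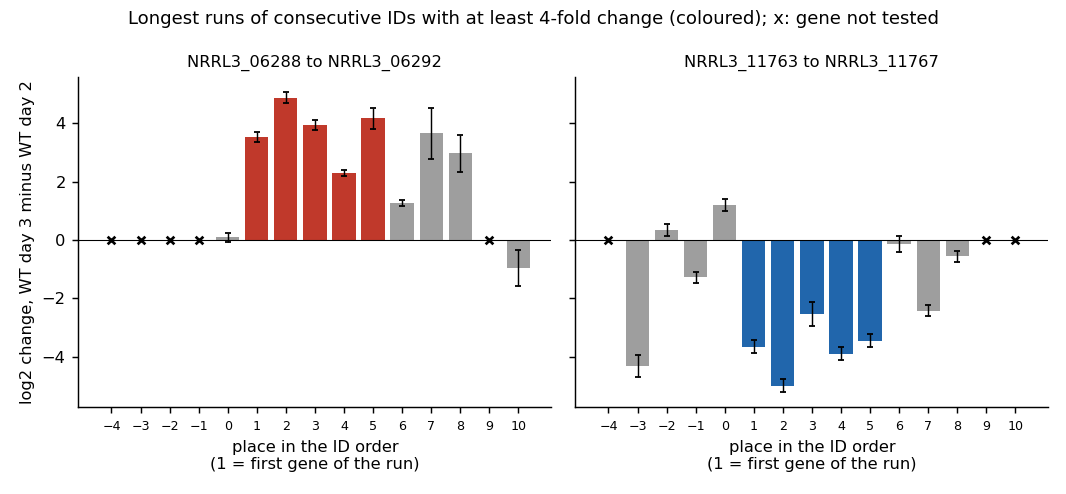
Bars give the log2 change of WT day 3 minus WT day 2, with SE, for consecutive IDs around the longest run each way, against their place in the ID order. Coloured bars are the 5 genes of the run, grey bars are other genes and crosses are genes that were not tested. The run on the left rose by 2.29 to 4.88 and the run on the right fell, with changes of -4.99 to -2.55.

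Some genes were on at day 3 and off at day 2. At least 10 TPM in all WT day 3 libraries and under 1 TPM in all WT day 2 libraries was found for 29 genes. The opposite was seen in 7 genes, a count that became 11 without WT day 3 replicate 1 and 12 without WT day 3 replicate 2. Among the 29 switched on, the median of the mean levels was 21.1 TPM in WT day 3 and 0.240 TPM in WT day 2. Of these, 10 had an adjacent ID that was switched on too, where 29 of all 9558 genes tested were switched on. The set was chosen on the same libraries, so this count is a description. None of the 29 averaged 10 TPM at WT day 4, where the median was 0.503 TPM and the highest 7.75 TPM. At WT day 1 the median was 0.493 TPM and 2 genes reached 10 TPM. In TLL, 1 of the 29 reached 10 TPM at day 1, 1 at day 2, 0 at day 3 and 1 at day 4.

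The genes with the strongest changes at day 3 can be followed through the other groups. Libraries of those groups entered the fit's estimate of spread and the filter on low values, but not the fold change that chose the genes. For the 302 genes at least 4-fold higher, the median level over genes was 8.02 TPM at WT day 1, 5.11 TPM at day 2, 53.9 TPM at day 3 and 5.69 TPM at day 4. For the 335 genes at least 4-fold lower, it was 25.2, 59.8, 6.77 and 42.6 TPM at WT days 1, 2, 3 and 4. The WT day 4 medians thus lay closer to WT day 2 than to WT day 3 for both sets, and the distance of day 3 from day 2 is built into their choice. Over all 9558 genes tested the medians were 18.2, 19.4, 17.3 and 19.7 TPM in the same order of days.

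WT day 4 differed from WT day 2 in fewer genes than WT day 3 did. Against day 2, 771 genes were higher and 743 lower at day 4, 15.8% of those tested in all (8.07% and 7.77%), and 8-fold or more was reached by 9 that were higher (0.0942%) and 24 that were lower (0.251%). Leaving out WT day 2 replicate 3 lowered these 1514 calls to 983, while library weights raised them to 4600. With library weights the step to day 3 had 7394 calls. Against day 3, 3148 genes were higher and 1952 lower at WT day 4, 53.4% of those tested (32.9% and 20.4%). These comparisons share libraries with the step to day 3, so their values are only set side by side and no overlap is given.

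**Figure D4:**
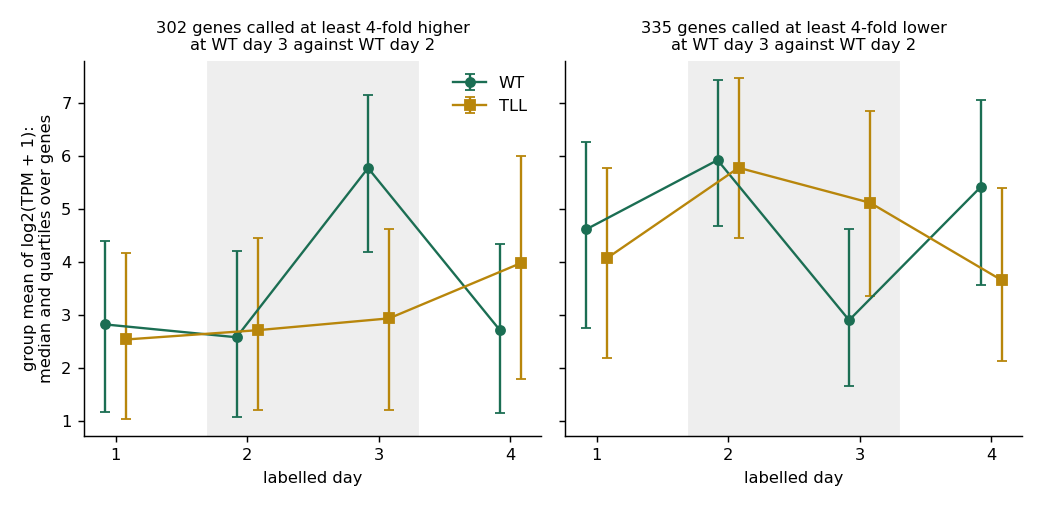
Points give the median over genes, and bars the quartiles, of the group mean of log2(TPM + 1) against the labelled day, WT in green and TLL in ochre. The grey band covers days 2 and 3, of which the WT libraries chose the 302 genes on the left and the 335 on the right. In WT the sets depart at day 3 and lie near their day 2 level at day 4, while in TLL they depart most at day 4.

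The step to day 3 was larger in WT than in TLL by count, and differed between the strains in many genes. In TLL, which shares no libraries with WT, 448 genes were higher (4.69%) and 1262 lower (13.2%) at day 3 against day 2, 17.9% in all. Without TLL day 2 replicate 2 these 1710 calls became 1128, and without TLL day 3 replicate 2 they became 1139. They became 2620 on the compared libraries alone, 3166 without the day 1 libraries and 4860 with library weights. In the same order the calls of the WT step were 6165, 6267 and 7394. The SD of the log2 changes over all genes was 1.11 in WT and 0.541 in TLL. The test of the difference itself, the WT step minus the TLL step, called 2588 genes, 27.1% of those tested, with 1145 more positive (12.0%) and 1443 more negative (15.1%) in WT (limma). An 8-fold or larger difference was seen on the positive side of WT in 96 genes (1.0%) and on its negative side in 57 (0.596%).

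Where both strains changed, they mostly changed the same way. Calls and shares are on the TPM scale, where the median log2 change of all genes was -0.17 in WT and -0.16 in TLL. No overlap was counted under another scaling, here or for TLL day 4 below. Genes higher in both numbered 247, which is 12.8% of the 1926 of WT, where 4.69% of all genes tested were higher in TLL. They were 55.1% of the 448 of TLL, where 20.2% of all genes were higher in WT. Genes lower in both numbered 858, which is 26.8% of the 3199 of WT, where 13.2% of all genes were lower in TLL. They were 68.0% of the 1262 of TLL, where 33.5% of all genes were lower in WT. Another 83 were higher in WT and lower in TLL, 4.31% of the 1926 against 13.2% of all genes. The 63 that were lower in WT and higher in TLL were 1.97% of the 3199, against 4.69% of all genes. Of the 335 genes at least 4-fold lower in WT, 163 were called lower in TLL at day 3, 48.7% against 13.2% of all genes, with a median log2 change of -0.71. Of the 302 at least 4-fold higher in WT, 28 were called higher in TLL, 9.27% against 4.69% of all genes, with a median of 0.08.

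The genes with the largest difference between the strains' steps were NRRL3_04321 and NRRL3_02940 on the side of WT. In TLL, NRRL3_04321 was listed at 0 in all 3 day 3 libraries and at 0.32, 1.23 and 0 TPM at day 2, so no size is given for its difference (limma adjusted p = 1.02e-11). For NRRL3_02940 the mean was 0.307 TPM in TLL day 3 and 0.357 TPM in TLL day 2, and the difference of its log2 changes was 8.39 (SE 0.40, limma adjusted p = 1.02e-11).

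On the side of TLL they were NRRL3_00308 and NRRL3_11759. NRRL3_11759 had 73.2, 82.8 and 69.0 TPM in WT day 3 and 1664, 1653 and 1233 TPM in WT day 2, while TLL day 3 had 5796, 4883 and 5005 TPM and TLL day 2 had 989, 1142 and 967 TPM, in the order of replicates. The WT step was a fall (log2 change -4.31, SE 0.38, limma adjusted p = 1.38e-08) and the TLL step a rise (log2 change 2.34, SE 0.38, limma adjusted p = 0.000205). The difference of the steps was -6.65 (SE 0.53, limma adjusted p = 1.59e-08). NRRL3_00308 had 0, 0 and 10.7 TPM in WT day 3 and 37.2, 11.9 and 30.6 TPM in WT day 2, against 272, 258 and 244 TPM in TLL day 3 and 0, 13.5 and 0 TPM in TLL day 2. The difference of its steps was -10.19 (SE 1.29, limma adjusted p = 8.16e-06), where values of 0 beside values over 10 TPM within a group make the size uncertain (-14.62 and -7.09 with pseudocounts of 0.1 and 5 TPM).

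Set against TLL day 4 in place of TLL day 3, the WT step shared more called genes and correlated more strongly, but was about as far away in size. The SD over all genes of the WT change minus the TLL change was 1.01 for TLL day 4 and 1.03 for TLL day 3, with a median absolute difference of 0.52 and 0.494 on the log2 scale. TLL day 4 against TLL day 2 called 1937 genes higher (20.3%) and 3215 lower (33.6%), 53.9% in all, near the numbers of the WT step. Genes higher in both numbered 864, which is 44.9% of those of WT and 44.6% of those of TLL. Genes lower in both numbered 2061, which is 64.4% of those of WT and 64.1% of those of TLL. Another 189 were higher in WT and lower in TLL, 9.81% of the 1926 of WT against 33.6% of all genes. The 148 that were lower in WT and higher in TLL were 4.63% of the 3199 of WT, against 20.3% of all genes. Across the 9558 genes the log2 changes of WT correlated at r = 0.581 (Spearman's rho 0.584) with those of TLL day 4 and at r = 0.385 (rho 0.393) with those of TLL day 3. Genes are not independent replicates, and both TLL comparisons share the TLL day 2 libraries.

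Of the 302 genes at least 4-fold higher in WT, 155 were called higher at TLL day 4, 51.3% against 20.3% of all genes, with a median log2 change of 0.81. Of the 335 at least 4-fold lower, 281 were called lower, 83.9% against 33.6%, with a median of -2.04. Of the 29 genes switched on at WT day 3, 12 were called higher at TLL day 4, 41.4% against 20.3% of all genes. Another 1 was called lower, 3.45% against 33.6% of all genes, and the median log2 change of the 29 was 0.26. The nearness of WT day 3 to TLL day 4 was known from earlier results of these data, and these counts are given as a description of it.

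**Figure D5:**
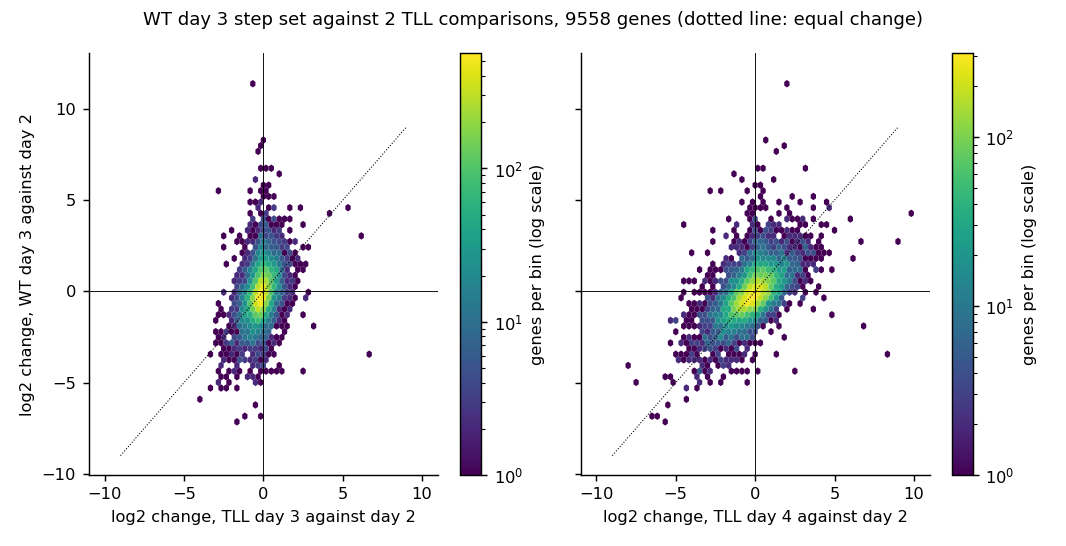
The vertical axes give the log2 change of WT day 3 against day 2 and the horizontal axes that of TLL day 3 (left) or TLL day 4 (right) against TLL day 2, with colour for the number of the 9558 genes in a bin on a log scale. The cloud on the left is steep, with an SD of 1.11 in WT and 0.541 in TLL, and that on the right is more tilted to the dotted line of equal change (r = 0.581, against 0.385 on the left), while the SD of the difference is 1.01 on the right and 1.03 on the left.

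Many genes changed differently in the WT step and in TLL day 4 against TLL day 2. A call of such a difference can come from a change in WT, in TLL or in both. The test of the difference, the step of WT day 3 minus that of TLL day 4, called 2814 genes, 29.4% of those tested and more than the 2588 against TLL day 3, with 1508 more positive (15.8%) and 1306 more negative (13.7%) in WT (limma). For 8-fold or more there were 109 on the positive side of WT (1.14%) and 27 on its negative side (0.282%). NRRL3_04321 led these again, with 8.88, 4.41 and 3.69 TPM in TLL day 4 replicates 1, 2 and 3 beside its WT values above, and a difference of 9.22 (SE 0.55, limma adjusted p = 3.14e-10). NRRL3_01795, the second, had 35.0, 31.5 and 80.3 TPM in WT day 3 and was listed at 0 in all libraries of WT day 2 and of TLL day 4, while TLL day 2 held 18.5, 17.9 and 0 TPM (limma adjusted p = 0.00218, with no size given). This gene was uneven within other groups too, with 0, 89.2 and 0 TPM in WT day 1 and 0, 0 and 11.7 TPM in WT day 4. Its change at WT day 3 is therefore uncertain.

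On the other side, NRRL3_06871 had 47.3, 37.2 and 41.7 TPM in WT day 3 and 256, 200 and 92.4 TPM in WT day 2, against 3942, 3881 and 3697 TPM in TLL day 4 and 31.4, 33.4 and 28.2 TPM in TLL day 2. The difference of its log2 changes was -8.89 (SE 0.70, limma adjusted p = 1.51e-08), with a fall in WT and a rise in TLL. NRRL3_00308 had the largest difference on this side, at -11.83 (SE 1.29, limma adjusted p = 1.4e-06), with 787, 810 and 831 TPM in TLL day 4. Its WT and TLL day 2 values were given above, and with pseudocounts of 0.1 and 5 TPM the difference was -16.27 and -8.72.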

How the data were processed

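RNA of hyphae was made into Illumina libraries, per the labels' protocols. The data are 1 deposited table of TPM per gene for 24 libraries. The submitters' processing notes name HISAT2, StringTie and Cufflinks without roles, while the table's name refers to RSEM, so the tool behind the TPM values is uncertain. Neither the genome build nor the gene models behind the table are given in these sources. TPM keeps no read number, so no counting interval is printed. Columns were matched to samples by library name, 0 columns belonged to no sample, and 0 pairs of libraries were identical. No ID (0 of 11846) matched the 14404 genes of the reference table.

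The 9558 genes that reached 1 TPM in 3 or more libraries were fitted as log2(TPM + 1), which understates changes of genes near 1 TPM, in limma 3.58.1 (R 4.3.3). The fit had a mean for each of 8 groups, 16 residual degrees of freedom and a mean-variance trend. Each SE thus rests on the spread within all 8 groups and not just on the libraries compared. Genes count as called below 0.05 in a two-sided test after Benjamini-Hochberg adjustment over the genes fitted. The fit was checked on data simulated with normal noise and known changes in a small part of the genes. That check does not cover the scaling of the libraries or changes in a large part of the genes. The rule for named genes took, each way, the 2 largest changes among called genes whose higher group averaged 10 TPM or more and whose libraries did not overlap between groups. For differences between steps, the highest of 4 groups had to reach 10 TPM. All other IDs were chosen after their values were seen. The comparison, the lists and the rules were chosen with earlier results of these data known, and no gene list was used because no ID has a name.

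Alternatives were pseudocounts of 0.1 and 5 TPM, no filter on low values or one at 5 TPM, scaling by median of ratios or by quantiles, the replicate number as a block, library weights, no trend, fits on the compared libraries or without day 1, and leaving out each library. Fits without TLL day 4, on WT alone and without the most abundant gene were added after seeing the data. Figures were drawn with matplotlib 3.10.9.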

Additional observations from a re-analysis of the deposited data

Results flagged for a closer look

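The step to day 3 from day 2 differed between the strains, by a test of the difference itself, in 2588 genes (limma). A second test set the WT step against TLL day 4 minus TLL day 2 and called 2814 genes (limma). In that test strain and labelled day differ together, so it does not compare the same step. Among the genes named for the first test, the difference of WT minus TLL was 8.39 for NRRL3_02940, -10.19 for NRRL3_00308 and -6.65 for NRRL3_11759 on the log2 scale. All TLL day 3 libraries list NRRL3_04321 at 0, so it is given by its limma adjusted p of 1.02e-11. For the second test the differences were 9.22 for NRRL3_04321, -11.83 for NRRL3_00308 and -8.89 for NRRL3_06871. Both sizes given for NRRL3_00308 are uncertain, since single libraries of WT day 3 and TLL day 2 were above 0, and over the alternatives that kept all libraries compared they ran over -14.62 to -7.09 and -16.27 to -8.72. NRRL3_01795 was listed at 0 in all libraries of WT day 2 and TLL day 4 and is given by its limma adjusted p of 0.00218. It was uneven within WT day 1, with 89.2 TPM in replicate 2 and 0 in replicates 1 and 3.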

How the results depend on the processing

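The 5125 calls of the WT step stayed between 4661 and 7394 under the 14 alternatives that kept all its libraries and between 4444 and 4701 without a single library. Without a single library the calls numbered 1526 to 1842 higher and 2802 to 2955 lower, with 2277 to 2467 at least 2-fold, 95 to 113 at least 8-fold higher and 104 to 122 at least 8-fold lower. A pseudocount of 5 TPM gave 1572 genes of at least 2-fold, where 1 TPM gave 2422, and 50 higher and 63 lower at 8-fold. A pseudocount of 0.1 TPM gave 205 and 186 at 8-fold. Library weights, for which limma warned of incomplete convergence, gave 2914 genes higher in the WT step, 4860 calls for the TLL step to day 3, 5687 and 5810 for the differences from TLL days 3 and 4, and 4600 for WT day 4 against day 2. Fits on the compared libraries gave 2620 for the TLL step to day 3 and 4106 and 4258 for both differences. Fits without day 1 gave 3166, 4121 and 4371 in the same order, and 3018 for WT day 4 against day 2. Leaving out a library gave 1128 to 1507 for the TLL step to day 3 and 983 to 1342 for WT day 4 against day 2.

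With the replicate block the WT step had 5142 calls, and it changed the count of calls by less than 1.5 times in each other comparison. Same-numbered libraries of WT day 3 and WT day 2 had deviations that correlated at -0.0022 to -0.0691, so these values show no pairing by number. With 3 libraries a day this is a description and not a test of pairing. Of 674 single-gene alternatives for the genes named, 666 kept their side of the threshold and 0 changed direction. The call lost was that of NRRL3_01765 under quantile normalization, which leaves little room for a rise of a gene already at the top rank. The other 7 are those in which NRRL3_07275 passed, such as median-of-ratios scaling (log2 change 0.69, limma adjusted p = 0.00485). The causes of these shifts were not tested.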
